A study of Mus musculus with 9 samples.

Results

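The genes described here encode translation initiation factor eIF2 and the enzymes that add or remove the phosphate on its α subunit. They were chosen by name, as the rows whose mouse annotation symbol is *Eif2s1*, *Eif2s2*, *Eif2s3x*, *Eif2ak1*, *Eif2ak2*, *Eif2ak3*, *Eif2ak4*, *Ppp1r15a* or *Ppp1r15b*, which made 9 of the 55416 genes counted. RNA was sequenced from whole lenses of mouse embryos at the embryonic stage E16.5, with 4 *Atf4* null and 5 wildtype libraries, each from the single pair of lenses of an embryo. The *Atf4* null embryos were homozygous for *Atf4*tm1Tow, an allele that all cells of the embryo carry and in which a neomycin resistance cassette takes the place of coding exons, and the wildtype embryos were littermates from crosses of heterozygous mice on a mixed C57Bl/6/129 background. No agent was given to either group, and the colony was not typed for the *Bfsp2* deletion of the 129 strain. ATF4 is the transcription factor whose translation rises when eIF2α is phosphorylated, so the comparison asks how transcripts of the steps upstream of ATF4 stand in lenses that lack it.

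The eIF2 complex carries the initiator methionyl-tRNA to the ribosome and has an α subunit (*Eif2s1*), a β subunit (*Eif2s2*) and a γ subunit that binds GTP (*Eif2s3x*, with a copy on the Y chromosome, *Eif2s3y*). Each of the kinases phosphorylates the α subunit on a serine under its own stress: HRI (*Eif2ak1*) under heme shortage and mitochondrial stress, PKR (*Eif2ak2*) with double-stranded RNA, PERK (*Eif2ak3*) with unfolded protein in the endoplasmic reticulum, and GCN2 (*Eif2ak4*) under amino acid shortage. Phosphorylated eIF2 holds on to its exchange factor eIF2B, which slows translation in general and favours that of ATF4. Protein phosphatase 1 (PP1) removes the phosphate when guided by the inducible cofactor GADD34 (*Ppp1r15a*) or the constitutive cofactor CReP (*Ppp1r15b*). Counts of transcripts carry no information on phosphorylation.

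The site that all 4 kinases modify is shown first because it joins the members. In the GRCm39 genome the codon for serine 51 of eIF2α, counted from the residue after the initiator methionine, lies in the first coding exon of *Eif2s1*, and is shown in capitals with 10 codons on each side at chr12:78913424-78913486 on the plus strand.
Eif2s1: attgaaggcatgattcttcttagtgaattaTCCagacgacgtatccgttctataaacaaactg
The codon itself spans chr12:78913454-78913456.

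The stretches before the start sites of *Ppp1r15a* and *Eif2s2* are shown because the results turn on these genes. They are the 250 bases upstream of the start in the RefSeq promoter table, placed in GRCm39 by exact match at chr7:45175693-45175942 (*Ppp1r15a*) and chr2:154734827-154735076 (*Eif2s2*), each on the minus strand.
Ppp1r15a: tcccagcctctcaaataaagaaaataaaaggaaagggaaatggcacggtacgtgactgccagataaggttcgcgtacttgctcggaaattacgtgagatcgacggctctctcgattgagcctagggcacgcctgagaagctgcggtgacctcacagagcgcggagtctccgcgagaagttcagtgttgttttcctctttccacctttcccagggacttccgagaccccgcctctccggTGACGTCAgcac
Eif2s2: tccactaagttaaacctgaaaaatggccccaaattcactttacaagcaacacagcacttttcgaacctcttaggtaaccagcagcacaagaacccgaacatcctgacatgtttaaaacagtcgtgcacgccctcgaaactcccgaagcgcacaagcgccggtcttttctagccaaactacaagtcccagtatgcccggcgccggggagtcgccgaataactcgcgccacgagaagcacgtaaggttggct
The motifs searched on both strands were the cyclic AMP response element TGACGTCA and the C/EBP and ATF composite element TGATGNAA. The capitals mark TGACGTCA at bases -12 to -5 from the start of *Ppp1r15a*. Neither set of letters occurs in the window of *Eif2s2*. The table held 8 of the 9 members, and *Ppp1r15b* was not matched. TGACGTCA occurs in 1 of these members and in 1.55% of the 32851 promoters searched, and TGATGNAA occurs in 1 member, *Eif2s3x*, at bases -96 to -89, and in 3.45% of promoters. A match describes letters and was not tested as a bound site.

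The libraries held 8409779–8906996 counts on genes in wildtype and 7440807–8696699 in the *Atf4* null group. In CPM, a library's counts scaled to a common total with TMM factors, *Atf4* itself was at 138 ± 13.8 in the 5 wildtype and 5.79 ± 4.65 in the 4 *Atf4* null libraries (mean ± SD, as throughout). A gene is called when its adjusted p in the test described below is under 0.05. Of all genes tested, 2.23% were called higher and 3.67% lower in *Atf4* null lenses. Lens markers were abundant in all 9 libraries, although *Lim2*, a fiber membrane protein gene, had no count under its identifier. The summed level of 4 lens epithelium markers was 851–1310 CPM in wildtype and 602–851 CPM in *Atf4* null libraries, with 3 of 4 genes called lower, and that of 8 lens fiber markers was 30400–57500 and 22900–54600 CPM, with 2 of 7 tested genes called lower. Erythroid markers summed to 231–744 and 184–256 CPM, with 1 of 7 tested genes called lower. Wildtype replicate 5 stood apart, with 9100 CPM for 7 skeletal muscle markers against 14.1–30.1 CPM in the other wildtype and 38.4–118 CPM in the *Atf4* null libraries, and 13900 CPM for 6 mesenchyme markers against at most 544 CPM. Set against wildtype replicates 1 to 4 only, the genes listed as mesenchyme markers did not move together. *Col1a1* was at 8.99–29.1 CPM in those libraries and at 93.6–146 CPM in the *Atf4* null group, and *Col1a2*, *Dcn* and *Lum* likewise lay higher in every *Atf4* null library. *Col3a1* overlapped, at 13.5–37.5 and 34.9–220.0 CPM, while *Pdgfra* was at 180–258 CPM in all 5 wildtype libraries and 6.7–26.2 CPM in the *Atf4* null group. *Pdgfra* was not raised in replicate 5, unlike the sum, so here it did not act as a mesenchyme marker. It made up most of the sum in the other wildtype libraries. Pigment cell markers summed to 20.2–42.1 CPM in wildtype replicates 1 to 4, 141 CPM in replicate 5 and 43.1–109 CPM in the *Atf4* null libraries. The part of these transcripts in the members' values was not tested. The summed retina markers ran from 115 to 185 CPM in wildtype and from 180 to 589 CPM in *Atf4* null libraries, with 3 of 8 genes called higher. Endothelium markers summed to 263–498 and 130–303 CPM, with 0 of 5 genes called. In bulk RNA, fewer cells of a type and less RNA per cell cannot be told apart.

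One of the 9 genes passed the test between genotypes, *Eif2s2*, which was lower in the *Atf4* null lens. The test was the quasi-likelihood test of edgeR, with Benjamini-Hochberg adjusted p-values. The filter on low counts left 14903 genes, all 9 members among them. Over all genes tested, 5.9% were called, 2.23% higher and 3.67% lower in *Atf4* null lenses. Counts at an unadjusted p below 0.05 were 2 of 9 members (*Eif2s2* and *Ppp1r15a*) against 19.6% of all genes, and the CPM of the genotypes did not overlap for 1 member (*Eif2s2*) against 10.2% of all genes. The fitted log2 fold changes were above 0 for 5 members and below 0 for 4, with a median of 0.05 against 0.00072 over all genes tested. The members as a set thus stood near the background, and the values below are of single genes.

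**Figure D1:**
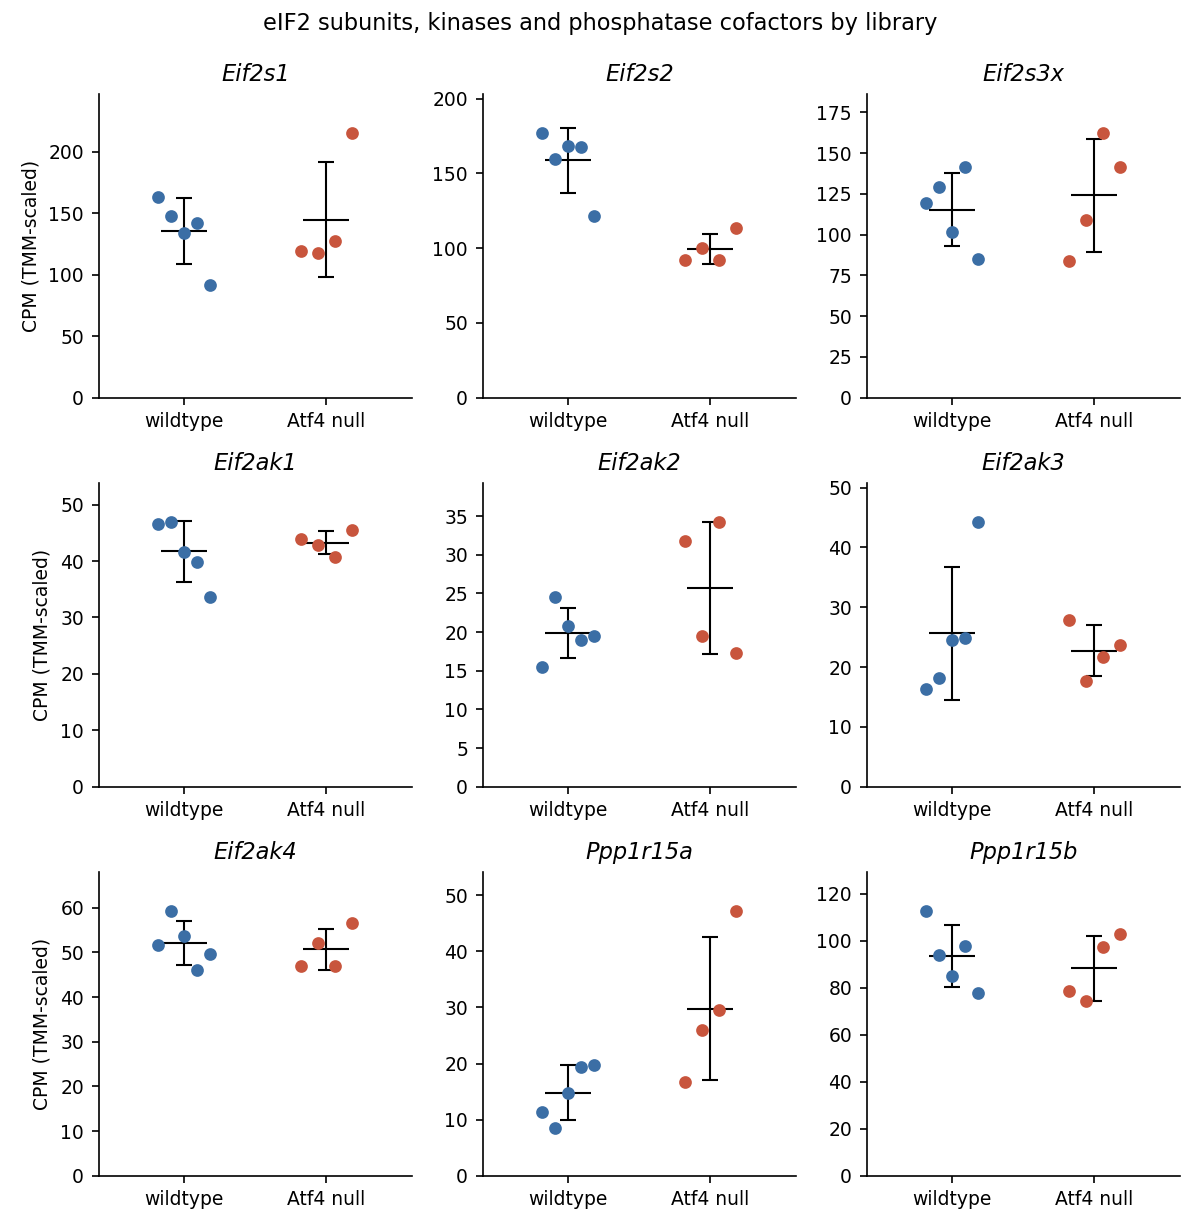
Each panel plots the TMM-scaled CPM of one gene (y axis, from 0) in the 5 wildtype libraries (blue points) and the 4 *Atf4* null libraries (orange points), with the mean (horizontal line) and SD (error bar). The points of the genotypes are apart for *Eif2s2*, at 121–177 against 92.2–113 CPM, and overlap in the other 8 panels.

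Among the subunits, *Eif2s2* (ENSMUSG00000074656, chr2:154713330-154734855, minus strand), the gene for eIF2β, was at 177, 160, 168, 168 and 121 CPM in wildtype replicates 1 to 5 and at 92.2, 100.1, 92.2 and 113 CPM in *Atf4* null replicates 1 to 4. Every *Atf4* null library lay below every wildtype library, and the lowest wildtype library was replicate 5. The mean CPM were 159 ± 21.8 for the 5 wildtype and 99.5 ± 10.01 for the 4 *Atf4* null libraries. *Eif2s2* fell by 0.68 on the log2 scale (SE 0.13, 95% interval -0.95 to -0.40), to 0.626 of the wildtype level, with an adjusted p of 0.00736 in edgeR's quasi-likelihood test and rank 303 of 14903 genes by p. An exact permutation test of the mean log2 CPM, two-sided, gave p = 0.0159. Without wildtype replicate 5 it was -0.75 and the adjusted p was 0.000546, in a fit that called 8.33% of genes. The median lens epithelium and lens fiber marker sums were lower in the *Atf4* null libraries too (1240 and 54200 CPM in wildtype, 792 and 35100 CPM in *Atf4* null). The lowest wildtype library in *Eif2s2*, replicate 5, had the lowest wildtype sums (851 and 30400 CPM), and the highest *Atf4* null library in *Eif2s2*, replicate 4, had the highest fiber sum of its group (54600 CPM) and the lowest epithelium sum (602 CPM). The part of these markers in the value of *Eif2s2* was not tested.

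*Eif2s1* (ENSMUSG00000021116, chr12:78907681-78935018, plus strand), the gene for eIF2α, was at 163, 148, 134, 142 and 91.6 CPM in the wildtype libraries and at 119, 117, 128 and 215 CPM in the *Atf4* null libraries. The highest library of all was *Atf4* null replicate 4, the lowest was wildtype replicate 5, and the genotypes overlapped. The log2 fold change was 0.09 with a 95% interval of -0.34 to 0.52, which takes in a fall to 0.792 of the wildtype level and a rise to 1.44 times it, and the adjusted p was 0.863 in edgeR's quasi-likelihood test. Leaving out *Atf4* null replicate 4 gave -0.16 and an adjusted p of 0.665. The lens fiber marker sum of that library was 54600 CPM, against 22900–35700 CPM in the other *Atf4* null libraries, and its part in the *Eif2s1* value was not tested.

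*Eif2s3x* (ENSMUSG00000035150, chrX:93232313-93256468, minus strand), the gene for eIF2γ on the X chromosome, was at 119, 129, 101, 142 and 85.1 CPM in wildtype and at 83.9, 109, 162 and 142 CPM in *Atf4* null libraries. Its ranges overlapped widely, and the log2 fold change was 0.11 with a 95% interval of -0.31 to 0.52 and an adjusted p of 0.836 in edgeR's quasi-likelihood test. Embryos of both sexes were present in each genotype. *Eif2s3y*, the Y copy, had 0 counts in the 3 libraries with *Xist* transcripts (wildtype replicates 2 and 4 and *Atf4* null replicate 3) and 37.7–62.7 CPM in the 6 libraries with Y transcripts. *Eif2s3x* was at 129–162 CPM in the *Xist* libraries and at 83.9–142 CPM in the Y libraries, and the sum of the X and Y copies was 129–162 CPM and 123–195 CPM. Thus the libraries lowest in *Eif2s3x* were all of one sex, and adding the Y copy brought the ranges together. The coding sequences of the copies are alike at 86.3% of 1416 bases, with 194 that differ. With sex as a covariate *Eif2s3x* had a log2 fold change of 0.17 between genotypes and an adjusted p of 0.651 in edgeR's quasi-likelihood test.

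**Figure D2:**
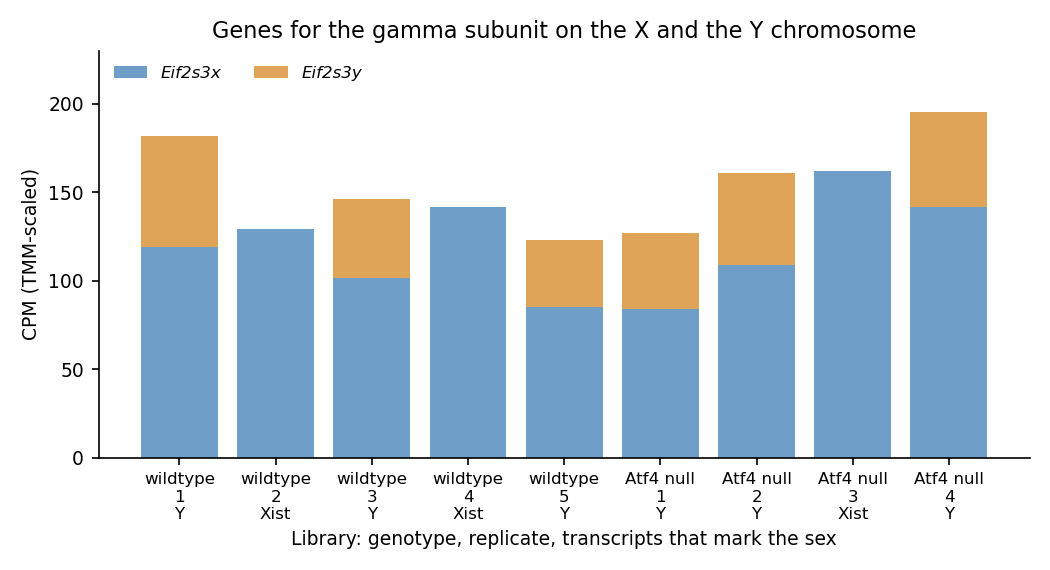
Stacked bars give the TMM-scaled CPM (y axis, from 0) of *Eif2s3x* (blue) and *Eif2s3y* (yellow) in each of the 9 libraries (x axis: genotype, replicate and whether Y transcripts or *Xist* mark the library). The 3 *Xist* libraries hold *Eif2s3x* alone at 129–162 CPM, and the 6 Y libraries reach 123–195 CPM with both copies.

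Since the subunits form one complex, their counts were also set against each other within each library, which does not depend on scaling. The ratio of *Eif2s1* to *Eif2s2* counts was 0.922, 0.928, 0.796, 0.847 and 0.755 in wildtype and 1.30, 1.17, 1.39 and 1.90 in *Atf4* null libraries. All wildtype libraries held fewer *Eif2s1* than *Eif2s2* counts and all *Atf4* null libraries held more. The genes differ in length, so equal counts do not mean equal levels, and only the shift between genotypes is read here. The ratio was 1.67-fold higher in *Atf4* null lenses (0.74 on the log2 scale), with an exact permutation p of 0.0079, two-sided, the smallest that 4 against 5 libraries allow, and 0.016 after Benjamini-Hochberg adjustment over the 4 ratios compared. The ratio of *Eif2s3x* to *Eif2s2* was 0.602–0.844 in wildtype and 0.910–1.76 in *Atf4* null libraries, a 1.69-fold difference with the same exact permutation p of 0.0079 and adjusted p of 0.016, and again with no overlap. The ratio of *Eif2s1* to *Eif2s3x* was 1.003–1.37 and 0.788–1.52, with a log2 difference of -0.01 and an exact permutation p of 0.968. Thus the ratios with *Eif2s2* below the line were apart between genotypes, while the ratio of the other subunits overlapped. The first pair share the low *Eif2s2* counts and are not separate evidence of each other.

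**Figure D3:**
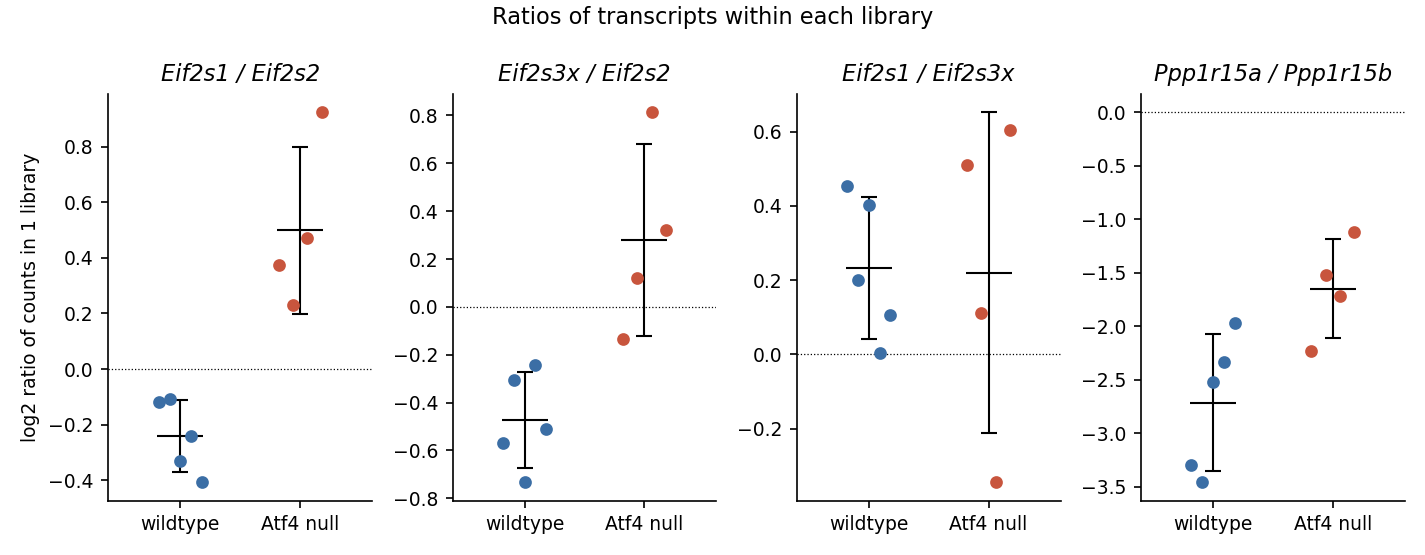
Each panel plots the log2 ratio of the counts of a pair of genes within one library (y axis) for 5 wildtype (blue) and 4 *Atf4* null (orange) libraries, with mean and SD and a dotted line at equal counts. The *Eif2s1* to *Eif2s2* panel has wildtype points from -0.41 to -0.11 and *Atf4* null points from 0.23 to 0.92, while the *Eif2s1* to *Eif2s3x* points of the genotypes overlap.

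The 3 genes whose pattern was most like that of *Eif2s2*, by the smallest mean absolute difference in centred log2 CPM over the 9 libraries, were *Uchl1* (0.064), *Paics* (0.070) and *Nars1* (0.072). *Uchl1*, a ubiquitin hydrolase gene, was at 168 ± 26.6 CPM in wildtype and 96.4 ± 6.12 CPM in *Atf4* null lenses. *Paics*, a purine synthesis gene, was at 184 ± 32.04 and 112 ± 7.25 CPM. *Nars1*, the cytoplasmic asparaginyl-tRNA synthetase gene, was at 81.2 ± 13.5 and 50.04 ± 7.01 CPM.

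None of the 4 kinase genes passed edgeR's quasi-likelihood test, none had an unadjusted p below 0.05, and none was called under DESeq2 or any of the other alternatives. *Eif2ak4* (GCN2; ENSMUSG00000005102, chr2:118218950-118305868, plus strand) was at 51.7, 59.2, 53.7, 46.1 and 49.7 CPM in wildtype and at 46.95, 52.1, 47.0 and 56.6 CPM in *Atf4* null libraries. Its libraries varied least in wildtype, with a coefficient of variation of 9.4%, and its log2 fold change of -0.04 had a 95% interval of -0.33 to 0.25, so that the interval leaves room for levels of 0.796 to 1.19 times wildtype (adjusted p = 0.917). *Eif2ak1* (HRI; ENSMUSG00000029613, chr5:143803530-143843661, plus strand) was at 33.6–46.9 CPM in wildtype and 40.7–45.6 CPM in *Atf4* null libraries. The *Atf4* null range lay inside the wildtype range, and the log2 fold change was 0.05 with a 95% interval of -0.26 to 0.37 and an adjusted p of 0.900 in edgeR's quasi-likelihood test.

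*Eif2ak3* (PERK; ENSMUSG00000031668, chr6:70821461-70882235, plus strand) was at 16.3, 18.1, 24.6, 24.8 and 44.2 CPM in wildtype and at 27.9, 17.6, 21.6 and 23.7 CPM in *Atf4* null libraries. The wildtype library that stood highest was replicate 5, the one with the muscle and mesenchyme transcripts. With it the log2 fold change was -0.17 (95% interval -0.77 to 0.43, adjusted p = 0.809 in edgeR's quasi-likelihood test), and without it 0.12 (adjusted p = 0.828). The sign of this difference was thus set by that library, and at neither value did it exceed the spread between replicates.

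*Eif2ak2* (PKR; ENSMUSG00000024079, chr17:79159972-79190012, minus strand) was at 15.5, 24.6, 20.8, 19.0 and 19.5 CPM in wildtype and at 31.8, 19.4, 34.2 and 17.3 CPM in *Atf4* null libraries. *Atf4* null replicates 1 and 3 lay above every wildtype library, and replicates 2 and 4 lay within the wildtype range. The log2 fold change was 0.37 with a 95% interval of -0.14 to 0.89 and an adjusted p of 0.440 in edgeR's quasi-likelihood test. *Eif2ak2* is an interferon-stimulated gene, and the summed CPM of 13 other such genes was 38.3–71.7 in wildtype libraries and 135, 42.4, 112 and 39.3 in *Atf4* null replicates 1 to 4. Thus the same libraries that were high in *Eif2ak2* were high in this list. The summed retina markers were also highest in *Atf4* null replicates 1 and 3, at 588.6 and 390.2 CPM. They were at 316.1 and 180.1 CPM in replicates 2 and 4 and at most 185.2 CPM in wildtype, and their part in the *Eif2ak2* value was not tested. The highest libraries of the interferon genes were *Atf4* null replicates 1 and 3 for 9 of the 13 genes, among them *Oasl2*, a sensor gene of the oligoadenylate synthetase family, at 27.4 and 20.2 CPM against 2.77–10.2 CPM in the other 7 libraries, and *Irf7*, a transcription factor of the interferon response, at 14.1 and 4.28 CPM against at most 3.09 CPM. Between genotypes, 0 of the 8 interferon genes tested were called by edgeR or by DESeq2 and 0 had an unadjusted p below 0.05, with a median log2 fold change of 0.90. Over all genes tested these shares were 5.9%, 9.37% and 19.6%. The source of the interferon transcripts was not tested, and *Oasl2* and *Irf7* were chosen for naming after their values were seen.

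The phosphatase cofactors differed from each other in level and in their values between genotypes. *Ppp1r15a* (GADD34; ENSMUSG00000040435, chr7:45172340-45175692, minus strand), whose promoter is shown above, was at 11.4, 8.52, 14.8, 19.4 and 19.8 CPM in wildtype and at 16.7, 25.9, 29.5 and 47.2 CPM in *Atf4* null libraries. *Atf4* null replicates 2, 3 and 4 lay above all wildtype libraries, while replicate 1 lay among them. The mean CPM were 14.8 ± 4.92 and 29.8 ± 12.8, a log2 fold change of 1.01 (SE 0.31, 95% interval 0.33 to 1.68). The adjusted p was 0.0831 in edgeR's quasi-likelihood test, so the difference did not pass at 0.05, although its unadjusted p was 0.00656. An exact permutation test, two-sided, gave p = 0.0476 for this gene alone. The call turned on the processing. It passed in 7 of 19 alternatives, which are given with the share of all genes each called. The adjusted p was 0.0263 with DESeq2 (9.37%), 0.045 with edgeR's exactTest (7.11%), 0.0475 with library size in place of TMM (8.25%), 0.0269 with no filter on low counts (3.87%) and 0.0233 with the replicate number as a block (5.72%). Leaving out *Atf4* null replicate 1 gave 0.0349 (5.53%) and leaving out wildtype replicate 5 gave 0.0342 (8.33%). Wildtype replicate 5 was alone in its block, so the blocked fit and the fit without that library are not separate support. Without *Atf4* null replicate 4 the log2 fold change was 0.69 and the adjusted p 0.226. The lens fiber marker sums were 22900, 35700, 34520 and 54600 CPM in *Atf4* null replicates 1 to 4, so that the lowest and the highest library were the same as for *Ppp1r15a*, whereas in wildtype the library highest in *Ppp1r15a*, replicate 5, had the lowest sum. The part of the fiber markers in the *Ppp1r15a* value was not tested. The direction was higher in *Atf4* null lenses in all 19.

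*Ppp1r15b* (CReP; ENSMUSG00000046062, chr1:133058881-133067539, plus strand) was at 112, 93.7, 85.1, 97.6 and 77.6 CPM in wildtype and at 78.4, 74.4, 97.3 and 103 CPM in *Atf4* null libraries. The genotypes overlapped, with a log2 fold change of -0.08, a 95% interval of -0.38 to 0.22 and an adjusted p of 0.827 in edgeR's quasi-likelihood test. Within a library, the ratio of *Ppp1r15a* to *Ppp1r15b* counts was 0.102, 0.0909, 0.174, 0.198 and 0.255 in wildtype and 0.212, 0.348, 0.303 and 0.460 in *Atf4* null libraries. The constitutive cofactor had more counts than the inducible one in all 9 libraries, and *Atf4* null replicate 1 lay below the highest wildtype library. The summed exon length is 5612 bases for *Ppp1r15b* and 2937 for *Ppp1r15a*, so the counts alone do not give the order of their levels. The ratio was 2.09-fold higher in *Atf4* null lenses (1.07 on the log2 scale), with an exact permutation p of 0.0317, two-sided, and 0.0423 after Benjamini-Hochberg adjustment over the 4 ratios. Leaving out single libraries gave exact permutation p-values above 0.05 in 7 of 9 cases, from 0.0571 to 0.0893 at log2 differences of 0.88 to 1.16. The 2 cases below 0.05 were those without *Atf4* null replicate 1 (1.26, exact p = 0.0357) and without wildtype replicate 5 (1.25, exact p = 0.0286).

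**Figure D4:**
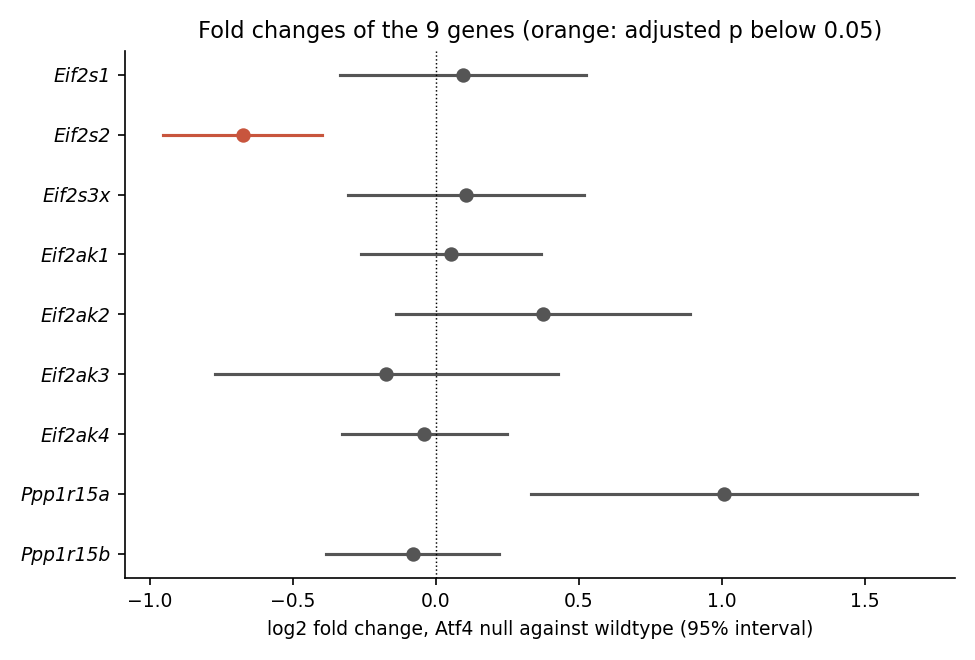
Points give the fitted log2 fold change of each gene, *Atf4* null against wildtype (x axis), with the 95% interval as a line. Orange marks an adjusted p below 0.05 and holds for *Eif2s2* at -0.68, and the interval of *Ppp1r15a*, 0.33 to 1.68, lies above 0 although its adjusted p did not pass.

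Levels can be compared between genes only per length. In FPKM, which divide the CPM by the length in kilobases, with the summed length of all annotated exons, the wildtype lens held *Eif2s3x* at 30.2 ± 5.86, *Eif2s2* at 19.8 ± 2.72, *Eif2s1* at 18.1 ± 3.58 and *Ppp1r15b* at 16.6 ± 2.35 FPKM. *Ppp1r15a* followed at 5.04 ± 1.68 FPKM, and the kinases lay at 4.15 ± 0.544 (*Eif2ak1*), 4.04 ± 1.75 (*Eif2ak3*), 3.66 ± 0.600 (*Eif2ak2*) and 3.49 ± 0.328 FPKM (*Eif2ak4*). Neighbours in this order overlapped in range, except *Eif2s3x* with *Eif2s2* and *Ppp1r15b* with *Ppp1r15a*. The order depended on the length used. With the length of the canonical transcript, an alternative chosen after the values had been seen, *Eif2s2* came first at 62.5 ± 8.59 FPKM, followed by *Eif2s1* at 39.9 ± 7.90 and *Eif2s3x* at 31.6 ± 6.12 FPKM, and *Eif2ak4* and *Eif2ak1* stood at 9.77 and 9.61 FPKM above *Ppp1r15a* at 6.34, *Eif2ak3* at 5.62 and *Eif2ak2* at 4.57 FPKM. With either length, the 3 subunits and *Ppp1r15b* were the 4 highest of the 9 genes in wildtype.

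Some counts of members may hold reads of other genes, since the strand setting of the counting is not stated in the labels or the methods. The library kit is stranded, and a tag in the names of the deposited tables may stand for a strand setting, which was not checked. Genes on the opposite strand share 25.6% of the exon length of *Eif2ak1* (*Aimp2*), 21.4% and 9.68% of that of *Eif2s1* (*Plek2* and *Atp6v1d*), 11.4% of that of *Ppp1r15b* (*Gm26616*) and 7.64% of that of *Eif2ak3* (*Gm43292*). Smaller shares were 3.38% for *Eif2ak4* (*Srp14*), 2.98% for *Eif2ak1* (*Ankrd61*), 0.865% for *Eif2ak2* (*Gm55596*) and 0.409% for *Ppp1r15a* (*Tulp2*). Over the 9 libraries *Aimp2* had 1265 counts, 39.6% of the number for *Eif2ak1*, and *Atp6v1d* had 4443, 42.9% of the number for *Eif2s1*, while *Plek2* and *Gm26616* had 50 and 28. How many counts of the members came from these neighbours was not tested. *Eif2s2* and *Eif2s3x* share exon bases with no counted gene. Each has a near-identical copy elsewhere, *Gm9892* for *Eif2s2* (99.5% over 992 bases) and *Gm2223* for *Eif2s3x* (100% over 1350 bases), with 38 and 46 counts over the 9 libraries, or 0.385% and 0.516% of the counts of the members. How reads that fit a member and its copy alike were counted was not tested. These shares therefore do not show what the members lost or gained.

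The partners of eIF2 were read from the same fit. Over all genes tested, 5.9% were called by edgeR, 9.37% were called by DESeq2 and 19.6% had an unadjusted p below 0.05 in edgeR. Of the 5 subunit genes of the exchange factor eIF2B, 0 were called by edgeR or DESeq2 and 1 (*Eif2b1*, log2 fold change 0.53) had an unadjusted p below 0.05, with a median of 0.22. Of 11 genes for start codon recognition and other eIF2 partners, 1 was called by edgeR, 2 were called by DESeq2, with library size in place of TMM and without *Atf4* null replicate 1, and 2 had an unadjusted p below 0.05. The gene called by edgeR was *Eif5b*, the GTPase that joins the ribosomal subunits, which was at 562–930 CPM in wildtype and 318–515 CPM in *Atf4* null libraries without overlap, and fell by 1.02 on the log2 scale (SE 0.17, adjusted p = 0.00361 in edgeR's quasi-likelihood test). Its lowest wildtype library, replicate 5, had the lowest wildtype fiber marker sum (30370 CPM). *Atf4* null replicates 1 and 4, its lowest and highest, had the lowest and highest sums of their group (22880 and 54580 CPM). The sum of *Atf4* null replicate 4 lay within the wildtype range. The part of the fiber markers in the *Eif5b* value was not tested. The other gene with an unadjusted p below 0.05 was *Eif5*, the GTPase activator of eIF2, at 246–415 CPM in wildtype and 365–706 CPM in *Atf4* null libraries, with a log2 fold change of 0.59 and an adjusted p of 0.0831 in edgeR's quasi-likelihood test. Over that list 8 of the 11 fold changes were above 0, with a median of 0.20. Of 9 regulators of the kinases, 0 were called by edgeR or DESeq2 and 1 (*Adar*, 0.42) had an unadjusted p below 0.05, with a median of 0.07. Of 4 genes for PP1 catalytic subunits and the adaptor *Nck1*, 0 were called by edgeR or DESeq2 and 1 (*Nck1*, -0.46) had an unadjusted p below 0.05, with a median of -0.20. *Eif2b1*, *Eif5*, *Adar* and *Nck1* are named after their values were seen. The counts of these lists were not far from the shares over all genes, and no list was tested as a set.

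Transcripts downstream of eIF2α phosphorylation moved in both directions. Of 15 ATF4 and CHOP stress targets, 13 were tested, 4 were called by edgeR and 6 by DESeq2, and 8 had an unadjusted p below 0.05. Over all genes tested these shares were 5.9%, 9.37% and 19.6%. The 4 genes called by edgeR are given here. *Ddit3*, which encodes CHOP, was at 1.65–8.02 CPM in wildtype and 34–62.9 CPM in *Atf4* null libraries, and rose by 3.20 on the log2 scale (SE 0.42, adjusted p = 0.000581 in edgeR's quasi-likelihood test). *Cebpg*, a partner of ATF4 in dimers, rose by 0.93 (adjusted p = 0.00533), while *Asns*, the asparagine synthetase gene, fell by 1.30 (adjusted p = 0.0243) and *Nupr1*, a stress-induced chromatin protein gene, fell by 1.93 (adjusted p = 0.000155), in the same test. The median of the 13 was 0.16.

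*Ppp1r15a* is induced by several stresses, so the p53 targets and the immediate early genes, which respond to DNA damage and to stimulation of the cell, were read beside it. Of 9 p53 targets, 7 were called higher and 1 lower in *Atf4* null lenses by edgeR, with a median log2 fold change of 1.48. DESeq2 called 8, and all 9 had an unadjusted p below 0.05. The lower one was *Sesn1*, named after its values were seen. The study reports that *Rps19bp1*, the gene next to *Atf4*, was lower in lenses with this allele, and that its product suppresses p53. The part of *Rps19bp1* in the p53 targets was not tested. The 5 with the smallest p included *Cdkn1a*, the cell cycle inhibitor p21, which rose by 3.95, *Phlda3* by 3.42, *Zmat3* by 1.64, *Trp53inp1* by 1.48 and *Ccng1* by 1.27 on the log2 scale (adjusted p from 2.96e-05 to 0.00112 in edgeR's quasi-likelihood test). Of 12 immediate early genes, 9 were tested and 6 were called higher by edgeR, with a median of 0.81. DESeq2 called 6, and 6 had an unadjusted p below 0.05. Beside both lists, edgeR called 2.23% of all genes tested higher and 3.67% lower. DESeq2 called 9.37%, and 19.6% had an unadjusted p below 0.05 in edgeR. *Egr1*, a zinc finger factor of the early response, rose by 1.53 on the log2 scale (adjusted p = 0.00531), *Junb* by 1.30, *Btg2* by 0.76, *Jun* by 0.67 and *Zfp36* by 1.25. The count of 6 was not stable, and was 3 with the replicate number as a block or without *Atf4* null replicate 3, 1 without *Atf4* null replicate 2, 2 without wildtype replicate 2 or wildtype replicate 3, and 3 without wildtype replicate 4. The part of these genes in the *Ppp1r15a* value was not tested.

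**Figure D5:**
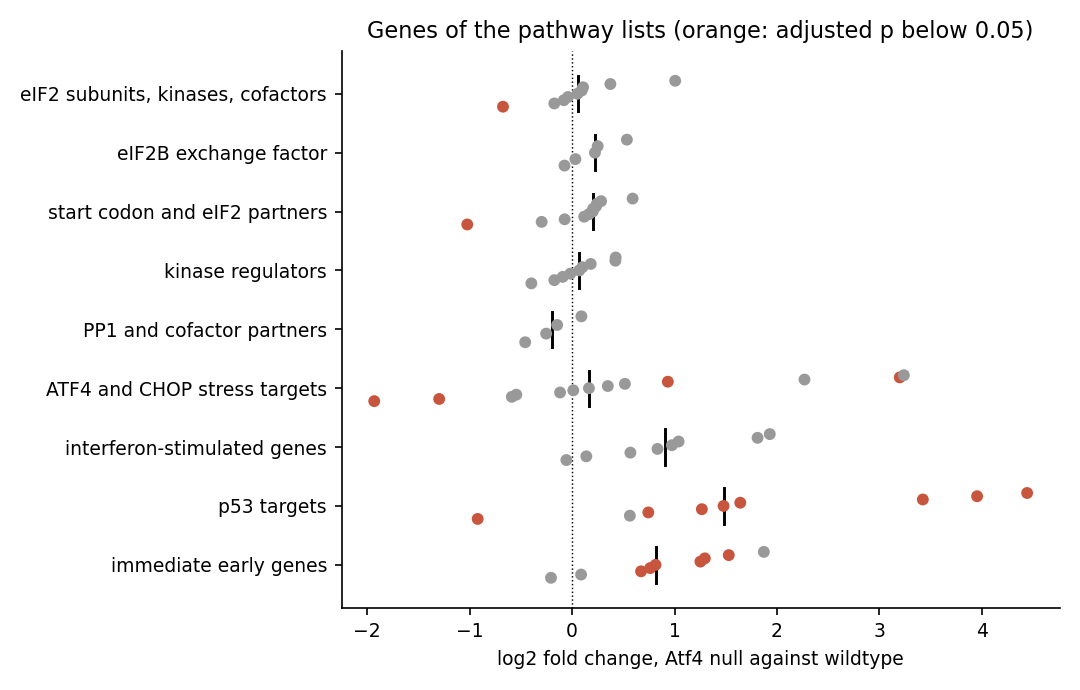
Points give the fitted log2 fold change of each tested gene, *Atf4* null against wildtype (x axis), by list (rows), with the list's median as a black line and genes with an adjusted p below 0.05 in orange. The medians run from -0.20 for PP1 and its partners to 1.48 for the p53 targets, and the members have a median of 0.05.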

How the data were processed

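Libraries were made with the Takara SMARTer Stranded Pico kit and sequenced on an Illumina NovaSeq. Per the study's methods and the submitters' processing notes, reads were trimmed by the authors (Trim Galore), cleared of ribosomal sequence (HISAT2), aligned to GRCm39 and counted on Ensembl genes (HTSeq). The deposited files hold raw counts, as whole numbers. The summary entries that name no gene, 44.6–47.7% of reads, were left out. For RNA isolation the labels name a mirVana kit and the methods an RNeasy kit. Symbols, positions and exon lengths came from GENCODE vM39, which matched 54749 of 55416 identifiers.

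edgeR 4.0.16 in R 4.3.3 was run on all 9 libraries (filterByExpr with a minimum count of 10, TMM, estimateDisp, glmQLFit, glmQLFTest, no covariate), with Benjamini-Hochberg adjustment and a threshold of 0.05. The 95% intervals come from the standard errors. CPM are scaled by TMM factors. Permutation tests used log2 CPM with a prior count of 2, or log2 ratios of counts. Sequences were read with Python 3.11.15 from GRCm39 and RefSeq, and near copies were found with minimap2 2.31-r1302. Alternatives were DESeq2 1.42.0, exactTest, other scalings and filters, a robust fit, sex as covariate, a replicate block and each library left out.

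The members, the lists and the tests were chosen with earlier results of these data known. The genes named are the members, *Atf4*, *Eif2s3y*, the called genes of each list (at most the 5 with the smallest p) and the 3 genes most like the member with the smallest p. Marker genes and genes that overlap or resemble a member are named as checks, *Rps19bp1* is named from the study, and others are said to be named after their values were seen. Each library comes from a separate embryo. No library repeats another: a chi-square of counts, per degree of freedom, was at least 7.93 in each of 36 pairs. The titles of the wildtype samples name another library than the deposited counts do, so the wildtype numbers are uncertain within that genotype. Members had 69 to 1479 counts per library, so counting error is part of the spread between libraries.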

Additional observations from a re-analysis of the deposited data

Results flagged for a closer look

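The CPM of *Eif2s1* in the *Atf4* null group were flagged because one library lay far from the others. *Atf4* null replicate 4 was at 215 CPM and the other 3 libraries at 117–128 CPM, so that the gap to the nearest library was 0.894 of the range of the group. Of 26 groups of libraries examined in this way, 1 was flagged, and chance flags about 1 in 20.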

How the results depend on the processing

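*Eif2s2* was called lower in all 19 alternatives, with log2 fold changes from -0.76 to -0.55 and adjusted p from 0.000102 to 0.0341. None of *Eif2ak1* to *Eif2ak4*, *Eif2s1*, *Eif2s3x* and *Ppp1r15b* was called in any of them. The number of members called rose from 1 to 2, with *Ppp1r15a*, under DESeq2, exactTest, library size in place of TMM and no filter on low counts, and was 1 to 2 with single libraries left out. Over all genes, 880 were called, 1397 by DESeq2, and 527 to 1207 with single libraries left out. Library size in place of TMM moved the median log2 fold change of all genes to 0.13 and the share of calls that were higher from 37.8% to 64.3%.

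Same-numbered libraries of the genotypes did not deviate together (correlations -0.13, -0.019, -0.023 and 0.008), so the numbers gave no pairing to use. Since the wildtype numbers are uncertain, these correlations cannot show whether littermates were paired. With the replicate number as a block, 852 genes and 2 members were called. Over the 4 same-numbered pairs, the log2 ratio differences were 1.25 (*Ppp1r15a* to *Ppp1r15b*), 0.70 (*Eif2s1* to *Eif2s2*) and 0.74 (*Eif2s3x* to *Eif2s2*), each at an exact p of 0.125, the smallest that 4 pairs allow. Leaving out single libraries gave 0.88 to 1.26 for the cofactor ratio.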
